A study of Mus musculus with 10 samples.

Results

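Far intergenic XBP-1 ChIP-seq regions of mouse liver are described here: places where a peak was called far from every annotated protein-coding gene. Peaks of the 8 immunoprecipitated libraries were merged where they overlapped by at least 1 bp, and a region was kept when it lay on chromosomes 1 to 19 or X, had a peak in 3 or more libraries and had its midpoint more than 20 kb outside every RefSeq protein-coding gene span. This gave 5084 members, 14.3% of the 35594 regions with a peak in 3 or more libraries. Members were selected on the peak calls themselves, so the number of libraries that called a member is a description and was not tested. Calls of 2 libraries weighed heavily on the choice: 85.5% of members (4349) had a peak in both Fasted replicate 1 and Fed replicate 2. This is not particular to members. Singly, these 2 libraries called 93.4% and 91.0% of members, and 95.4% and 91.6% of all 35594 regions. Without Fasted replicate 1 the rule gave 3116 members, and without Fed replicate 2 it gave 3179.

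XBP-1 was immunoprecipitated from the livers of C57BL/6J mice with an antibody to the spliced protein (Xbp-1s), and 2 libraries were made in each of 4 groups. Fasted and Fed were wild-type mice in those feeding states, Ern1-LKO were mice lacking Ern1 in the liver, and WT were the wild-type mice of that experiment. The labels give neither the length of the fast, the feeding state of the Ern1-LKO and WT mice, ages, nor what drove the liver deletion. Fasted and Fed lists were called against 1 input library and Ern1-LKO and WT lists against another, so groups were compared only within these pairs. Nothing says that replicates came from separate animals, so variation between these libraries may be technical. Each p-value below reflects how far these samples lie apart, or how evenly a contrast between kinds of region held over libraries or groups. Kept tags numbered 8377833 and 9620502 in the Fasted libraries, 17399899 and 7765561 in the Fed, 11995890 and 4340956 in the Ern1-LKO and 14072378 and 9176542 in the WT libraries. The lists stood far apart in length: 53973 and 19237 peaks in Fasted, 82975 and 47357 in Fed, 698 and 30796 in Ern1-LKO, and 6258 and 30327 in WT. A peak that is missing from a short list says that it was not detected there, and the lists give no signal for places without a peak.

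XBP-1 is a bZIP transcription factor of the unfolded protein response. Ern1 encodes IRE1α, the sensor in the endoplasmic reticulum (ER) membrane whose nuclease removes an intron from Xbp1 mRNA, and the spliced mRNA is translated to the active factor. XBP-1 is best known for binding promoters of ER chaperone, secretion and lipid genes. Sequence far from protein-coding genes holds enhancers, which can act on distant promoters, promoters of long non-coding RNAs (lncRNAs) and of microRNA (miRNA) precursors, and repeats such as satellite arrays and ribosomal RNA copies at which reads can pile up.

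Of the 22 members found in 7 or 8 libraries, 5 overlapped a RefSeq lncRNA promoter window, against 110 of all 5084 members. Such a window runs from 250 bases before to 50 bases after the start of the gene. All 5 members were called in 7 libraries, and none of the 5 members called in all 8 was at such a window. These 5 windows are printed because they touch the most widely called members with a RefSeq promoter sequence, 5′ to 3′ on the strand of the lncRNA (RefSeq, GRCm38.p6, the assembly of mm10). They are promoter sequence, parts of which can lie outside the member: the 4632428C04Rik window starts at 30008417 and its member at 30008577. A window of the lncRNA Gm32287 near Cebpb follows them, picked after its letters were seen because it holds the most marked motifs of the 4 windows at its 6-library member. The Gm14321 window there, whose start lies 8 to 61 bp before the summits, holds none of the marked motifs. Capitals mark ACGTG (the core shared by the XBP-1 response element and E-boxes), CCACG (the XBP-1 and ATF6 side of the ER stress response element) and CCAAT (the NFY box), each on either strand.
E130102H24Rik, chr4:101356199-101356498, minus strand: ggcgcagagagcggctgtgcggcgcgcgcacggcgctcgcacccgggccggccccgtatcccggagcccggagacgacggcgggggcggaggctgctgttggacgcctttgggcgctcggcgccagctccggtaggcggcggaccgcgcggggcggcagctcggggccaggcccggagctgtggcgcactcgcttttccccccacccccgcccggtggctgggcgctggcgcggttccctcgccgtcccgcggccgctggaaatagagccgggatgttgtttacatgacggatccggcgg
Gm34507, chr17:4908072-4908371, plus strand: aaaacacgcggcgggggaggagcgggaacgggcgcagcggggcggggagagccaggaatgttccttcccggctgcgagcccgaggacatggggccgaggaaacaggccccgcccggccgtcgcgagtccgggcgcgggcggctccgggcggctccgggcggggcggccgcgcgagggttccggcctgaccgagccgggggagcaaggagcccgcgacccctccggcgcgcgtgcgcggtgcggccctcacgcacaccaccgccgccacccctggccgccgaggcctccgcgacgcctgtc
Dleu2, chr14:61682324-61682623, minus strand: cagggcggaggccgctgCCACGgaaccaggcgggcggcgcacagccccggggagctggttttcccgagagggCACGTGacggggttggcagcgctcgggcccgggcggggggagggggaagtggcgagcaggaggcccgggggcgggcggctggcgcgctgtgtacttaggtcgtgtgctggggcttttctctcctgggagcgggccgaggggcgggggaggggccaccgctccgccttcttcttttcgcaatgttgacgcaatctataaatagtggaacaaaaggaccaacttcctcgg
2210408F21Rik, chr6:31220101-31220400, plus strand: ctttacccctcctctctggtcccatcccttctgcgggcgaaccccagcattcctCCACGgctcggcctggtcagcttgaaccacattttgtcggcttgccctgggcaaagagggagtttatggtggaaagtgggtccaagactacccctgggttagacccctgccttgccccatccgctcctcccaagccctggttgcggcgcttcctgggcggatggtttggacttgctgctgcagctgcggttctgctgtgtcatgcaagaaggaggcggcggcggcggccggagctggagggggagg
4632428C04Rik, chr16:30008417-30008716, plus strand: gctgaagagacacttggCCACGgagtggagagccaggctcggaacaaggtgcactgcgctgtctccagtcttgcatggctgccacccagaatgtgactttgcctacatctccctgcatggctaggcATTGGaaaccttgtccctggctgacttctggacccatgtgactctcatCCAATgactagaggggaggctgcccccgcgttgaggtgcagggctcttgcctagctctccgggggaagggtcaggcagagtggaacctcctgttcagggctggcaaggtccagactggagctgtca
Gm32287, chr2:167777663-167777962, minus strand: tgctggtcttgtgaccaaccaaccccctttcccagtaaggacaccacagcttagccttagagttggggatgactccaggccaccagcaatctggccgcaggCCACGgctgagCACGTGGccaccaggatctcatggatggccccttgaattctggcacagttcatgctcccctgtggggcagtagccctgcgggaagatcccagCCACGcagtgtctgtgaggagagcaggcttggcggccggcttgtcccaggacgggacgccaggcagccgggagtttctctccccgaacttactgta

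The windows of E130102H24Rik and Gm34507 held none of the 3 marked motifs and were the richest in G and C, at 76.7% and 79.3%, with 47 and 49 CpG dinucleotides. The Dleu2 window held 1 CACGTG, which reads as ACGTG on both strands, and 1 CCACG. The 2210408F21Rik window held 1 CCACG, and the 4632428C04Rik window held 1 CCACG and 2 NFY boxes. The Gm32287 window held 2 CCACG and 1 CACGTGG, in which ACGTG on both strands and CCACG overlap. Summits lay from 24 to 132 bp after the lncRNA start at 2210408F21Rik, from 60 bp before it to the start itself at Gm34507, and from 223 bp before to 107 bp after it at E130102H24Rik. They lay 241 to 471 bp after the start at 4632428C04Rik, 160 to 213 bp after it at Gm32287, and from 373 bp before to 972 bp after it at Dleu2 (median 909 bp after), so at these 3 most or all summits fell outside the printed window.

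Several members lay beside miRNA genes, and the mature miRNAs are shown because several share a seed, the bases 2 to 8 that pair with target mRNAs. Seeds are in capitals, and sequences are RefSeq's for GRCm38.p6. The first set is let-7 (seed GAGGUAG). Near Ppara, Mirlet7c-2 (let-7c-5p) lay 0.31 kb from a 3-library member and 3.01 kb from a 5-library member. Mirlet7b (let-7b-5p), in the same locus, lay 35.1 kb from a 7-library member. The 3-library member was nearer to it, ending at chr15:85706293, while the let-7b-5p sequence begins at 85707325. The genes of let-7a, let-7f and let-7d lay 7.57 to 9.72 kb from a 7-library member near Ptpdc1.
let-7c-5p: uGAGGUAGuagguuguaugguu
let-7b-5p: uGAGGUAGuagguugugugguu
let-7a-5p: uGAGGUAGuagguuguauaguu
let-7f-5p: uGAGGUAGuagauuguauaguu
let-7d-5p: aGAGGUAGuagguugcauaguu
The miR-17-92 cluster began 1.04 kb from a member called in all 8 libraries, and its miRNAs fall into 4 seeds. miR-17 and miR-20a share 1 seed and miR-19a and miR-19b another.
miR-17-5p: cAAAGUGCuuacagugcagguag
miR-20a-5p: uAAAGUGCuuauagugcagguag
miR-18a-5p: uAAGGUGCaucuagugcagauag
miR-19a-3p: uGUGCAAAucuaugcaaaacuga
miR-19b-3p: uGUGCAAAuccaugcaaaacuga
miR-92a-3p: uAUUGCACuugucccggccug
miR-15a and miR-16 share a seed and are processed from Dleu2 transcripts, whose promoter window is printed above. Their genes lay 48.84 and 48.98 kb from the 7-library member at that window.
miR-15a-5p: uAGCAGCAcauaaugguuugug
miR-16-5p: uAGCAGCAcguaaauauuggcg
miR-9-5p is encoded by both Mir9-1 and Mir9-3, each inside a member. Mir137 and Mir129-2 also lay inside members, and Mir193b lay 0.694 kb from one.
miR-9-5p: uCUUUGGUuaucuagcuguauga
miR-137-3p: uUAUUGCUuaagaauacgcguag
miR-129-5p: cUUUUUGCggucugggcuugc
miR-193b-3p: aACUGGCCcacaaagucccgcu

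Most members were narrow and thinly shared. Their median width was 347 bp (206 to 6002 bp), against 773 bp for gene-end regions, whose midpoint lies within 1 kb of the end of a gene, and 384 bp for intragenic regions more than 5 kb from either end. Of the 5084 members, 2250 were called in 3 libraries, 1520 in 4, 916 in 5, 376 in 6, 17 in 7 and 5 in all 8. In 7 or more libraries stood 0.433% of members (22), against 12.2% of gene-end regions (1472 of 12074) and 1.42% of intragenic regions (138 of 9705). Of all far intergenic regions with a peak in any library, 21.4% reached 3 libraries, against 60.4% of gene-end and 22.2% of intragenic regions. At the limits of the rule, 87 members lay 20 to 21 kb from a gene and 85 regions 19 to 20 kb from one, and the median fold enrichment of peaks was 6.39 in members called in 3 libraries and 5.45 in far regions called in 2, which were left out.

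Fold enrichment below is the authors' ratio of the pileup at the summit to the local background, used to describe peaks within a list. In 90.7% of members (4613) its median over the libraries that called the member was 5 or more, in 8.32% (423) it was 10 or more, and in 5 members it was 20 or more.

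The strongest member, chr2:144165007-144166232 in mm10, overlapped the lncRNA Banf2os and lay 84.5 kb from Snx5, which encodes an endosomal sorting nexin. Its fold was 47.5 and 17.3 in the Fasted libraries, 42.5 and 63.6 in Fed, 10.1 and 29.1 in Ern1-LKO, and 26.6 and 43.9 in WT. Its summit pileups were 247 and 92 tags in Fasted, 396 and 299 in Fed, 75 and 120 in Ern1-LKO, and 230 and 311 in WT. Fasted replicate 2 and Ern1-LKO replicate 1 were the lowest of their pairs of groups, and the other libraries of Fasted and Fed overlapped in value.

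The second, chr4:95161069-95161780, overlapped the lncRNA Junos and lay 109 kb from Jun, which encodes a bZIP subunit of AP-1. Its fold was 30.5 and 16 in Fasted, 19.2 and 39.8 in Fed, 7.47 and 34.9 in Ern1-LKO, and 21.0 and 36.1 in WT. At chr11:95712507-95713757, over the lncRNA Zfp652os and 32.4 kb from Phb, a gene for a mitochondrial prohibitin, fold was 34.8 and 18.9 in Fasted, 22.4 and 33.1 in Fed, 3.62 and 25.1 in Ern1-LKO, and 14.8 and 36.9 in WT. In both members the 2 groups of each pair overlapped, and the replicates of a group differed more than the groups did.

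Near the miR-17-92 host gene Mir17hg, chr14:115040246-115042631 had a fold of 18.7 and 15.4 in Fasted, 7.28 and 13.0 in Fed, 11.8 and 46.2 in Ern1-LKO, and 3.33 and 25.5 in WT. This member, 50.8 kb from the glypican gene Gpc5, was higher in both Fasted than in both Fed libraries, as was the median fold over all members (7.67 and 8.85 in Fasted, 4.80 and 6.90 in Fed). Its percentiles of −log10 q within the lists were 98.4 and 98.0 in Fasted and 96.8 and 95.3 in Fed. How many members separate Fasted from Fed in this way is not given here, so this one is not read as a response to feeding. The fifth member found in all 8 libraries, chr4:8911087-8911891, lay 43.0 kb from Chd7, which encodes a chromatin remodeller, and had a fold of 13.7 and 10.4 in Fasted, 8.07 and 9.36 in Fed, 5.49 and 17.5 in Ern1-LKO, and 3.98 and 17.7 in WT. By rank of −log10 q within each list this member overlapped between the groups, at percentiles 91.8 and 91.5 in Fasted and 96.7 and 89.5 in Fed.

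Of the 17 members called in 7 libraries, each lacked a peak in either Ern1-LKO replicate 1 or WT replicate 1, the shortest lists. The member over the E130102H24Rik promoter (chr4:101355886-101357273, 59.9 kb from the adenylate kinase gene Ak4 and 8.86 kb from Mir101a) had a fold of 17.2 and 8.91 in Fasted, 8.09 and 13.1 in Fed, 20.9 in Ern1-LKO replicate 2, and 5.70 and 19.2 in WT. The member at the Dleu2 promoter (chr14:61680951-61683161) had 13.2 and 6.52 in Fasted, 8.36 and 10.8 in Fed, 16.1 in Ern1-LKO replicate 2, and 4.73 and 18 in WT. Against WT replicate 2, Ern1-LKO replicate 2 was higher at the E130102H24Rik member (20.9 against 19.2) and lower at the Dleu2 member (16.1 against 18). Ern1-LKO replicate 1 called neither. Fold values of lists called against different inputs are not on 1 scale, so the Ern1-LKO values are not set against Fasted and Fed. Near Ppara, the nuclear receptor of the fasting response, chr15:85669929-85672239 lay 63.8 kb from the gene and had 12.4 and 12.3 in Fasted, 5.79 and 12 in Fed, 5.16 and 10.4 in Ern1-LKO, and 15.2 in WT replicate 2.

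The other 7-library members near a gene of known role included chr16:30008577-30009360, 56.4 kb from Hes1, a repressor downstream of Notch, with a fold of 10.4 and 6.37 in Fasted and 7.84 and 10.4 in Fed. Among them were also chr17:4907968-4908952 at the Gm34507 promoter, 85.8 kb from Arid1b of the BAF chromatin complex, and a pair of members 178 and 182 kb from Mkln1 at the lncRNAs 2210408F21Rik and Lncpint. Over the 22 members found in 7 or 8 libraries, 11 overlapped a non-coding gene.

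**Figure D1:**
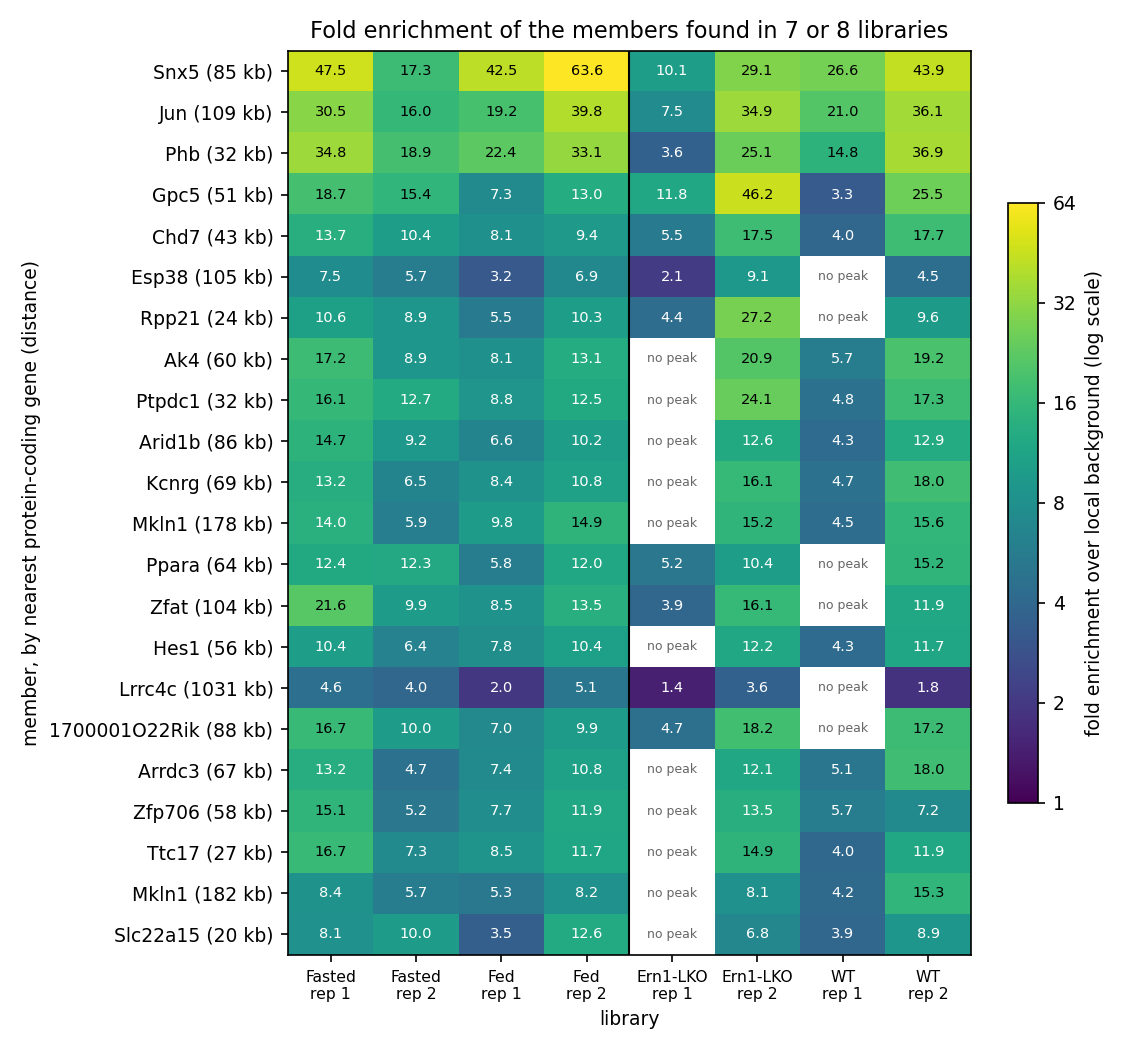
Each row is a member found in 7 or 8 libraries, named by its nearest protein-coding gene and the distance to it in kb, each column is a library, and colour and number give the authors' fold enrichment (log colour scale; white, no peak). Missing peaks fall in Ern1-LKO replicate 1 or WT replicate 1, and the row of the Snx5 member runs from 10.1 to 63.6.

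The libraries differed widely in how many members they called. Fasted replicate 1 called 4746 members (93.4%; 95.4% of all 35594 regions) and Fasted replicate 2 called 3128 (61.5%; 45% of all regions). Fed replicate 1 called 2671 (52.5%; 77.8% of all regions) and Fed replicate 2 called 4627 (91.0%; 91.6% of all regions). Fasted replicate 2 was thus the 1 library in which the share of members stood above the share of all regions, and Fed replicate 1, the deepest library, fell furthest below it among Fasted and Fed. Ern1-LKO replicate 1 called 19 members (0.374%; 1.85% of all regions) and replicate 2 called 2461 (48.4%; 63.1%). WT replicate 1 called 76 (1.49%; 6.96%) and replicate 2 called 2097 (41.2%; 66.2%). The 2 replicates of each group differed in the number of members called by more than the group means did, with 3937 ± 1144.1 in Fasted, 3649 ± 1383.1 in Fed, 1240 ± 1727 in Ern1-LKO and 1086.5 ± 1429 in WT (SD, n = 2 each).

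**Figure D2:**
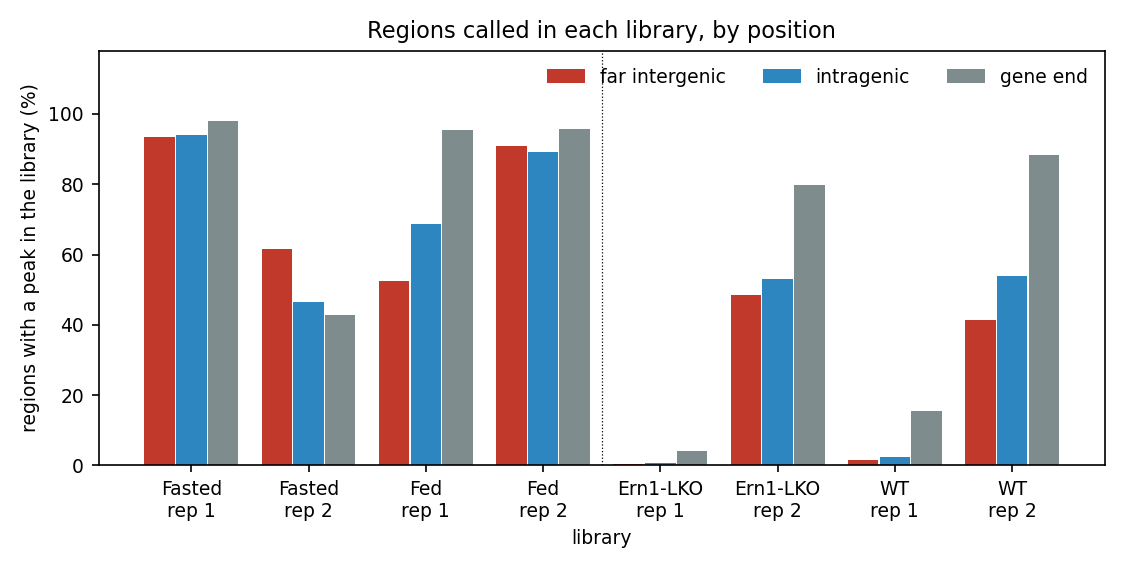
Bars give the share (%) of far intergenic members, of intragenic and of gene-end regions with a peak in each library; the dotted line parts the libraries called against different inputs. Gene-end regions were called more often than far intergenic members in every library but Fasted replicate 2, where 61.5% of members and 42.8% of gene-end regions had a peak.

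The commonest combination of calls was Fasted replicates 1 and 2 with Fed replicate 2, which held 1036 members (20.4%). Fasted replicate 1 with both Fed libraries held 413 (8.12%). Both pairs of groups contributed to 3233 members (63.6%), Fasted and Fed libraries alone to 1850 (36.4%), and Ern1-LKO and WT libraries alone to 1. All 4 groups were thus represented, but 36.4% of members rest on libraries that share an input. The shares of these combinations over all regions were not worked out, so none is read as particular to members. Fasted replicate 1 and Fed replicate 2 called 95.4% and 91.6% of all regions.

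The share of all peaks of a library that lie far from genes does not depend on the number of libraries and was tested. It was 16.9% and 21.3% in Fasted, against 14.5% and 17.7% in Fed, a difference of 2.99 percentage points (exact two-sided permutation test of 2 against 2, p = 0.667, Benjamini-Hochberg adjusted p = 0.933 over 7 tests). Of the Ern1-LKO peaks 3.44% and 13.8% were far from genes, against 14.4% and 9.96% of the WT peaks, a difference of -3.57 points (same exact test, p = 0.667, adjusted p = 0.933). The smallest p that 2 against 2 allow is 0.333, so neither design can pass 0.05, and in both pairs the groups overlapped. The Ern1-LKO difference turned on 1 library: without Ern1-LKO replicate 1 it was 1.60 points. Only part of these far peaks recurred, since 8.79% and 16.3% of the Fasted peaks lay at members, against 3.22% and 9.77% of the Fed peaks, and 2.72% and 7.99% of the Ern1-LKO peaks did so, against 1.21% and 6.91% of the WT peaks.

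Fold enrichment at members and at gene ends did not differ in a direction that held across libraries. Median fold of members against gene-end regions was 7.67 against 10.1 in Fasted replicate 1, 8.85 against 6.79 in Fasted replicate 2, 4.80 against 5.65 in Fed replicate 1 and 6.90 against 8.02 in Fed replicate 2. It was 5.67 against 5.40 in Ern1-LKO replicate 1, 6.32 against 9.83 in Ern1-LKO replicate 2, 5.61 against 5.003 in WT replicate 1 and 6.34 against 7.95 in WT replicate 2. Members stood higher in 3 of 8 libraries, those with the 3 shortest lists, whose part in the result was not tested. The mean log2 ratio was -0.15 ± 0.33 (SD, n = 8 libraries; exact two-sided sign-flip permutation test, p = 0.242, adjusted p = 0.933). Within the Fasted and Fed libraries it was -0.12 and within the Ern1-LKO and WT libraries -0.18 (exact p = 0.5 each, where 4 libraries cannot go below about 0.13).

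Against intragenic regions the ratio lay close to 0 in each library, from -0.14 in Ern1-LKO replicate 2 to 0.041 in Ern1-LKO replicate 1, with a mean of -0.010 ± 0.056 (SD, n = 8; exact sign-flip permutation test, p = 0.875, adjusted p = 1). Its sign changed with the setting, being 0.025 once members of high local background, described below, were left out. The median summit pileup was lower at members than at gene ends in 6 libraries, for example 15 against 34 tags in Fasted replicate 1, and higher in Ern1-LKO replicate 1 (30 against 22 tags) and WT replicate 1 (32 against 30 tags). The local background in Fasted replicate 1 was 1 times the genome-wide level at members and 2.81 times at gene ends.

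**Figure D3:**
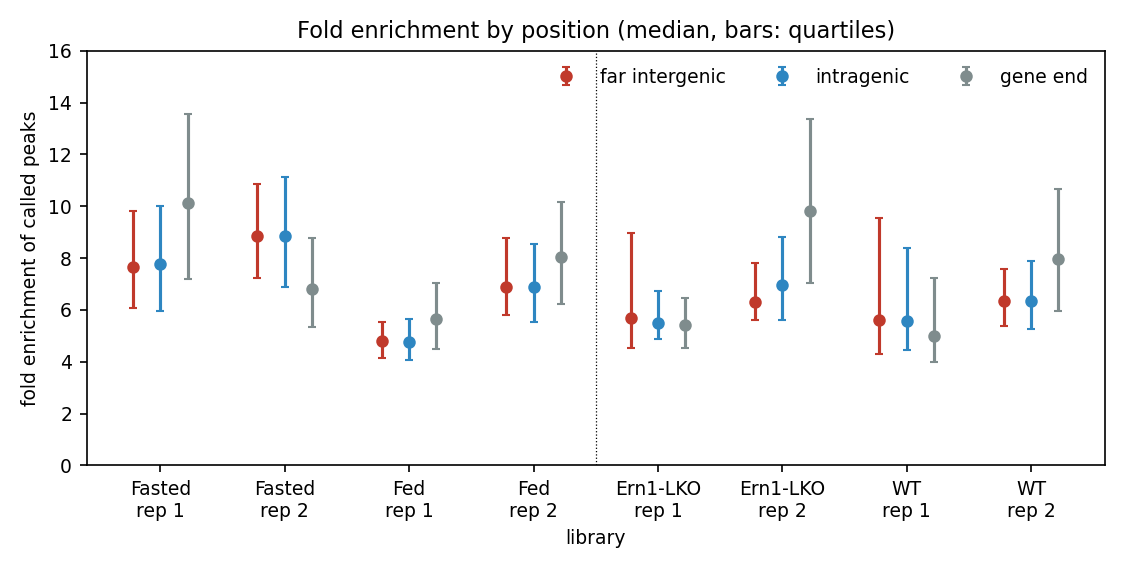
Points give the median fold enrichment of called peaks in each library for far intergenic members, intragenic and gene-end regions; bars run from the lower to the upper quartile. Members lie below gene ends in 5 libraries and above them in Fasted replicate 2 (8.85 against 6.79), Ern1-LKO replicate 1 and WT replicate 1.

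Members lay a median of 79.3 kb from the nearest protein-coding gene, and the farthest lay 2226 kb away. There were 1693 members at 20 to 50 kb, 1221 at 50 to 100 kb, 1755 at 100 to 500 kb, 302 at 500 to 1000 kb and 113 beyond 1000 kb. Median fold was 6.75, 6.87, 7.02, 7.40 and 7.12 over these ranges in turn, while the libraries that supplied the calls shifted. Fasted replicate 2 called 50.9% of the nearest members and 73.5% of those beyond 1000 kb. Fed replicate 1 called 63.2% of the nearest and 35.4% of the farthest, and WT replicate 2 called 49.4% and 31.9%. Members called in 5 or more libraries made up 30.01% at 20 to 50 kb, 27.4% at 50 to 100 kb, 22.6% at 100 to 500 kb, 15.9% at 500 to 1000 kb and 23.9% beyond that. The overlap with non-coding genes was 26.5% at 20 to 50 kb and 12.4% beyond 1000 kb.

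**Figure D4:**
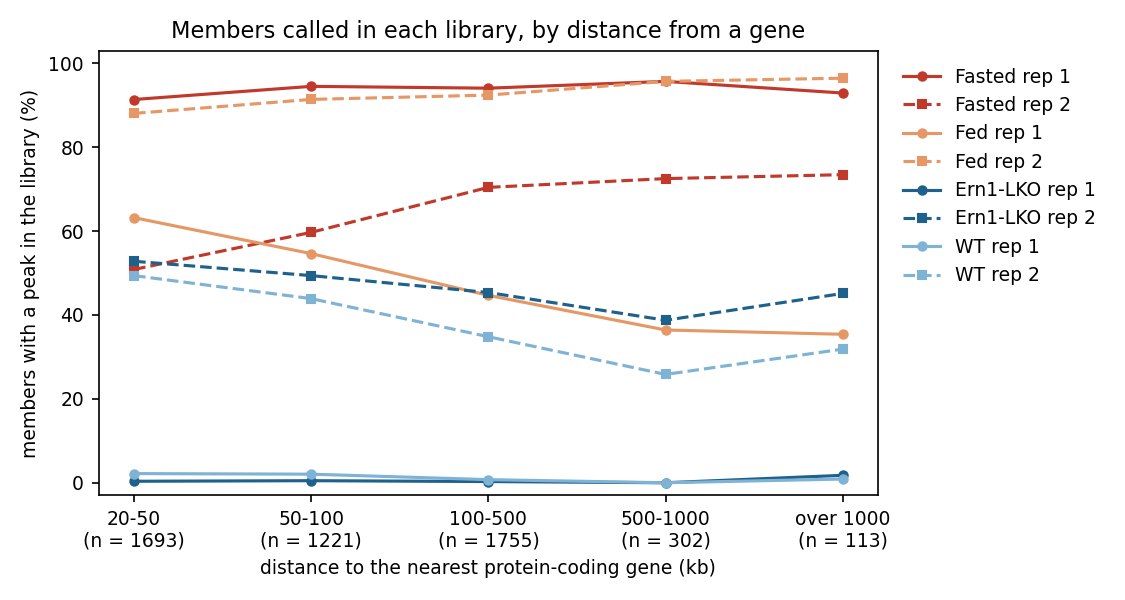
Lines give the share (%) of members with a peak in each library, over 5 ranges of distance to the nearest protein-coding gene in kb; n is the number of members. Fasted replicate 2 runs from 50.9% to 73.5% while Fed replicate 1 runs from 63.2% to 35.4%.

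The 5 most distant members lay 1956 to 2226 kb from a gene, and each was called in 3 libraries, both Fasted and Fed replicate 2. The farthest, chr14:90697418-90697686, had a fold of 8.42 and 5.90 in Fasted and 6.34 in Fed replicate 2, and its nearest gene was the protocadherin gene Pcdh20. Another, chr1:102458948-102459300, near the neuronal adhesion gene Cntnap5b, had 10.5 and 9.34 in Fasted and 11.6 in Fed replicate 2. None of the 5 was called in an Ern1-LKO or WT library.

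Members were sparse for the length of sequence that the rule searched. Between the first and last gene of each chromosome, 1177 Mb lay more than 20 kb outside every protein-coding gene and held 4.29 members per Mb, against 21.4 regions per Mb in the other 1424 Mb, a ratio of 0.200. The density of members was highest on chromosome 2, at 6.17 per Mb, and lowest on chromosome X, at 0.631 per Mb, where the density of other regions was also lowest, at 6.33 per Mb. Read mappability and copy number were not measured.

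A RefSeq non-coding gene was overlapped by 1199 members (23.6%) and an lncRNA gene by 998 (19.6%), while lncRNA spans covered 11.3% of the searched sequence. Overlap with the span of any non-coding gene was 25.1% in intergenic regions 1 to 20 kb from a gene, 7.49% in intragenic and 13.2% in gene-end regions. An lncRNA promoter window was overlapped by 110 members (2.16%), against 3.34% of the intergenic regions 1 to 20 kb from a gene, 1.59% of intragenic and 7.38% of gene-end regions. Of the 5029 far lncRNA promoter windows, 129 (2.57%) touched a member by at least 1 bp, whereas members covered 0.174% of the bases searched. These 2 shares are not like for like, since a window is touched more readily than a single base. The share of windows of this length that members would touch anywhere in the searched sequence was not worked out. The share at such a window was 1.17% of members called in 3 or 4 libraries, 4.37% in 5 and 5.59% in 6, with 5 of 17 members in 7 and 0 of 5 in 8 libraries. Median width was 335 bp in 3 or 4 libraries, 380 bp in 5, 488 bp in 6 and 969.5 bp in 7 or 8, and the part of width in these overlaps was not tested. Over the 129 windows the summits lay a median of 46 bp after the lncRNA start, with quartiles 136 bp before and 199.5 bp after it. The windows were chosen for touching a member, so summits near the start follow in part from that choice. These are 611 pairs of a summit and a window, so members and genes with several count more than once. The rule counted libraries but did not use non-coding annotation, and it allowed members at any lncRNA because only protein-coding genes were avoided.

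**Figure D5:**
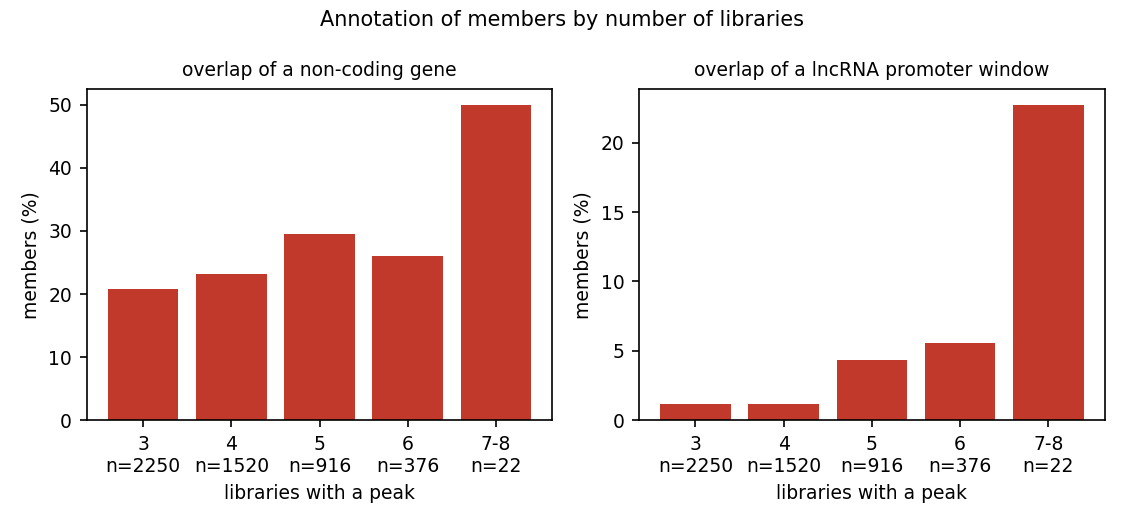
Bars give the share (%) of members that overlap a non-coding gene (left) or an lncRNA promoter window (right), by the number of libraries with a peak; n is the number of members. The right-hand share stands at 1.16% for 3 libraries and 22.7% for 7 or 8, which are 5 of 22 members, all of them in 7 libraries.

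The 129 windows were rich in G and C, with a median of 60% and 13 CpG dinucleotides per 300 bases, against 46% and 3 in the 4666 far lncRNA windows with no peak in any library. Motifs were counted on either strand, so that ACGTG and CCACG may overlap within 1 longer site. The core ACGTG stood in 29.5% of the windows at members, 14.96% of the windows with no peak and 19.8% of all 32619 promoter windows. CCACG stood in 41.1%, 17.5% and 33.0% of them, in that order. The NFY box CCAAT was rarer at members, with 29.5%, 39.6% and 37.6%. GGGCGG, the GC box bound by SP factors, stood in 49.6%, 6.37% and 35.9%. The sets differ in base composition, whose part in these shares was not tested. CCGGAAG, an ETS site, stood in 10.9% of windows at members, 2.14% of those with no peak and 8.92% of all windows, the AP-1 site TGACTCA in 4.65%, 7.16% and 5.22%, and the forkhead site TGTTTAC in 0.775%, 5.29% and 3.67%. The cAMP response element stood in 3.88%, 0.6001% and 1.80%, and the palindromic C/EBP site in 0.775%, 0.0429% and 0.184%. The full XBP-1 response element, the full ER stress response element, the CTCF core and an HNF4A site were not among the letters of the 129 windows, and stood in 0.681%, 0.120%, 0.129% and 0.478% of all promoter windows.

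A miRNA gene lay within 1 kb of 12 members (0.236%), against 0.546% of intragenic and 0.911% of gene-end regions. These members stood beside 15 of the 245 far miRNA genes (6.12%), while members widened by 1 kb on each side covered 1.007% of the searched sequence. Among these genes were Mir9-1, Mir9-3, Mir124a-1 and Mir137, whose products are best known from neurons. The Mir9-1 member, chr3:88214432-88216279, was called in 5 libraries with a fold of 11.7 in Fasted replicate 1, 6.27 and 7.17 in Fed, 4.46 in Ern1-LKO replicate 2 and 7.15 in WT replicate 2. The Mir9-3 member, chr7:79504739-79505814, had 13.9 in Fasted replicate 1, 4.67 and 5.07 in Fed, 5.38 in Ern1-LKO replicate 2 and 6.21 in WT replicate 2. Neither was called in Fasted replicate 2.

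Other miRNA genes near members were Mir6516, Mir193b, Mir3093, Mir3078, Mir129b, Mir5099 and Mirlet7c-2, with Mir101c beside the chromosome 9 cluster described below. The Snhg20 promoter member beside Mir6516, chr11:117076488-117077346, had a fold of 9.36 in Fasted replicate 1, 8.94 and 10.2 in Fed, 14.5 in Ern1-LKO replicate 2 and 11.4 in WT replicate 2. At Mir193b, chr16:13447929-13448829 had 11.4 in Fasted replicate 1, 6.35 and 11 in Fed, 10.5 in Ern1-LKO replicate 2 and 11.8 in WT replicate 2. Both members were missing from the same 3 libraries, Fasted replicate 2, Ern1-LKO replicate 1 and WT replicate 1.

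Members mostly stood alone: 3995 (78.6%) had no other member within about 13 kb, and 453 groups of 2 or more held the other 1089. Next to the bZIP gene Cebpb, chr2:167747228-167790338 held 14 members over 43.1 kb, the nearest 57.2 kb from the gene. Fasted replicates 1 and 2 called 14 and 1 of them, the Fed libraries 10 and 13, the Ern1-LKO libraries 0 and 11 and the WT libraries 2 and 13. In this cluster the 2 Fasted libraries were thus at opposite ends, so no direction with feeding can be read. A further group of 9 members lay at chr2:167828189-167875079, 55.9 kb from the phosphatase gene Ptpn1, with 7 and 1 called in Fasted, 9 and 8 in Fed, 0 and 4 in Ern1-LKO, and 1 and 7 in WT. Of the Cebpb members the one over the lncRNA pair Gm14321 and Gm32287, chr2:167777297-167778162, had a fold of 12 in Fasted replicate 1, 6.04 and 9.36 in Fed, 16.8 in Ern1-LKO replicate 2, and 5.74 and 13.6 in WT.

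Between Ppara and Wnt7b, chr15:85613127-85684538 held 12 members over 71.4 kb, of which Fasted called 12 and 3, Fed 9 and 12, Ern1-LKO 1 and 9, and WT 2 and 10. Clusters of 7 members each lay nearest to Tac4, a tachykinin gene, to Pax2, a developmental transcription factor gene, to the thioesterase gene Acot11 and to Polg, the mitochondrial DNA polymerase gene, where the cluster spans Mir9-3. Each of these 4 was called in at most 2 members by Fasted replicate 2 and in no member by Ern1-LKO replicate 1 or WT replicate 1.

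The largest cluster stood on a high local background. At chr9:2999875-3038405, 297 kb from the tRNA methyltransferase gene Alkbh8, 21 members filled 38.5 kb and had a median pileup of 55 tags but a median fold of 5.28, since the local background was 8.38 times the genome-wide level. Fasted called 21 and 21 of them, Fed 12 and 21, Ern1-LKO 0 and 15, and WT 0 and 13, and 15 of the 21 had a background at least 5 times the genome-wide level. Over all members, 46 (0.905%) had such a background, with a median pileup of 66.5 tags and a median fold of 5.08, against 14 tags and 6.88 in the others, and 81.2% of members (4127) lay within 1.5 times the genome-wide level. A 6002-bp member, chr17:39842954-39848955, over the ribosomal RNA copy Rn18s-rs5, had pileups of 397 and 368 tags in Fasted, 363 and 416 in Fed, 215 and 344 in Ern1-LKO and 351 in WT replicate 2, but a fold of 7.52 and 5.72, 3.19 and 6.94, 2.06 and 9.13, and 4.50. A member near Lrrc4c, chr2:98662141-98663094, had pileups of 185 to 285 tags and a fold of 1.44 to 5.11. Members of high background made up 4 of the 22 found in 7 or 8 libraries: these 2 and the Snx5 and Rpp21 members. What raised the background there was not tested.

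Between Fasted and Fed, few members were called in both libraries of 1 group and neither of the other. There were 59 with a peak in both Fasted libraries and none in Fed (1.16%; 0.59% of all regions) and 121 with a peak in both Fed libraries and none in Fasted (2.38%; 2.04% of all regions). Both counts rest on single libraries: without Fed replicate 2 the first was 832, without Fasted replicate 1 it was 11, without Fed replicate 1 it was 95 and without Ern1-LKO replicate 2 it was 26. Without Fasted replicate 1 the second was 813. With only peaks of −log10 q of 5 or more the counts were 113 and 51, so which was the larger turned round. Both Fasted libraries called 3026 members (59.5%; 44.2% of all regions) and both Fed libraries called 2346 (46.1%; 71.2% of all regions).

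The members with peaks in Fasted but not Fed libraries had a median fold of 6.84 and 6.88 in the Fasted libraries. The 1 with the highest mean rank was chr10:11491988-11492337, 32.5 kb from Epm2a, which encodes the glycogen phosphatase laforin, with a fold of 7.94 and 7.74 in Fasted, 14 in Ern1-LKO replicate 2 and 8.25 in WT replicate 2. Next came members near Slc35b3, Rspo2, Zbtb10 and Lhfpl2, with 8.42, 10.6, 8.94 and 6.84 in Fasted replicate 1 and 15.7, 8.96, 14.7 and 16.2 in Fasted replicate 2. By the rule of 3 libraries each of the 59 needs a call in an Ern1-LKO or WT library, and 44 had one in Ern1-LKO replicate 2 and 25 in WT replicate 2.

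Of those with peaks in Fed but not Fasted libraries, the median fold was 4.49 and 5.43 in the Fed libraries. The first in rank, chr13:12541822-12542711, 21.7 kb from Edaradd, had a fold of 33.3 and 5.41 in Fed, 7.56 in Ern1-LKO replicate 1, and 13.7 and 9.53 in WT. The next, chr2:169351536-169352095, 281 kb from Tshz2, had 33.9 and 6.07 in Fed, 8.96 in Ern1-LKO replicate 1 and 21.5 in WT replicate 1. Near Snap25, chr2:136679598-136680291 had 16.7 and 5.43 in Fed and 10.5 and 11.2 in WT, and no peak in Ern1-LKO. In all 3 the fold in Fed replicate 1 was at least 3 times that in Fed replicate 2, so the Fed replicates differed from each other there. The other 2 by the same order lay near A1bg and Tmem33, with 9.09 and 5.79 and with 5.10 and 6.88 in Fed. Each of the 121 likewise needs a call in an Ern1-LKO or WT library to reach 3 libraries. Ern1-LKO replicates 1 and 2 called 2 and 74 of the 121, and WT replicates 1 and 2 called 10 and 77.

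Between Ern1-LKO and WT, both Ern1-LKO libraries called 12 members (0.236%; 1.77% of all regions) and both WT libraries called 64 (1.26%; 6.82% of all regions). No member had a peak in both Ern1-LKO libraries and none in WT (0% of all regions), and 21 had a peak in both WT libraries and none in Ern1-LKO (0.413%; 0.559% of all regions). Without Ern1-LKO replicate 1 the first count was 1125 and without WT replicate 2 it was 6. Without WT replicate 1 the second was 751 and without Ern1-LKO replicate 2 it was 55. All 4 of these values differ from the full counts by more than 1.5 times, and the lists of Ern1-LKO replicate 1 and WT replicate 1 held 698 and 6258 peaks.

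Of the 21, 8 also had a peak in Fasted replicate 1, 1 in Fasted replicate 2, 20 in Fed replicate 1 and 14 in Fed replicate 2. The member near AU041133, chr10:82178255-82178898, had a fold of 10.3 and 16.1 in WT, with 9.37 in Fasted replicate 1 and 6.75 and 10.6 in Fed. A member near the Wnt receptor gene Fzd8 had 11.5 and 12.9 in WT, with 4.56 and 9.34 in Fasted and 19.1 and 8.05 in Fed. Near Nabp1, chr1:51509063-51509452 had 9.28 and 11.6 in WT and 6.23 in Fed replicate 1, and near Slc38a11, chr2:65285286-65285673 had 4.73 and 6.23 in WT and 8.51 in Fed replicate 1. A peak in at least 1 Fasted or Fed library is fixed here by the rule of 3 libraries.

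The nearest protein-coding gene was taken for each member as a label of place, and says nothing of which gene a member acts on. It was 1 of 2642 genes, with a median of 1 member per gene. Alkbh8 had 22 members, Cebpb 21, the deiodinase gene Dio3 15, the latrophilin gene Adgrl2 14 and Auts2 13. Genes of ER folding and quality control, the best known XBP-1 targets, were nearest to 8 members (0.157%; 0.188% of all regions with a peak in 3 or more libraries), spread over 5 of the 36 genes. Those for ER translocation and ER-Golgi transport were nearest to 7 members (0.138%; 0.225% of all regions), over 6 of 56 genes. None of the 15 members of these 2 lists was called in 5 or more libraries, as were 1314 of all 5084 members. Of the 2 members near Dnajb9, an ER co-chaperone gene, at 397.7 and 606 kb, the farther, chr12:43599345-43599715, had a fold of 11.7 and 15.2 in Fasted and 5.56 in Fed replicate 2. Near Selenok, an ER selenoprotein gene, chr14:29919362-29920032 had 9.24 in Fasted replicate 1, 5.52 and 8.45 in Fed and 10.5 in Ern1-LKO replicate 2, and near Sec31a, a COPII coat gene, chr5:100331423-100331793 had 9.47 and 8.85 in Fasted and 5.52 and 7.40 in Fed.

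Sensors and transcription factors of the unfolded protein response were nearest to 25 members (0.492%; 0.197% of all regions), of which 21 lay near Cebpb, 3 near Creb3l1, which encodes an ER-anchored bZIP factor, and 1 near Atf3. The share without Cebpb is thus 4 members over 2 genes. Of the 21 Cebpb members, Fasted called 20 and 1, Fed 16 and 17, Ern1-LKO 0 and 16, and WT 2 and 19. The Creb3l1 member called in most libraries, chr2:92059423-92060067, had a fold of 8.54 and 4.33 in Fasted, 6.31 and 8.67 in Fed, 7.55 in Ern1-LKO replicate 2 and 8.79 in WT replicate 2.

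Liver transcription factor genes were nearest to 44 members (0.865%; 0.509% of all regions), over 12 of 31 genes: 10 members near Tbx3, 7 near Ppara, 5 near Nr5a2 and 4 each near Foxa2, Foxo1 and Zbtb20. The farthest lay 230 kb from Tbx3 and 465 kb from Nr5a2. The part of long gene-free flanks in the share of this list was not tested. The leading Foxa2 member, chr2:147959899-147960421, 82.7 kb from this pioneer factor gene, had a fold of 10.8 and 12.3 in Fasted, 7.33 and 7.12 in Fed and 6.37 in WT replicate 2. Its percentiles of −log10 q within the lists, 78.4 and 90.2 in Fasted and 90.3 and 59.6 in Fed, overlapped. Hepatocyte secreted and metabolic genes were nearest to 8 members (0.157%; 0.191% of all regions), 5 of them near Apob, which encodes the structural protein of secreted lipoproteins. The leading Apob member, chr12:8094167-8094628, had 7.37 and 11.3 in Fasted, 7.59 and 10.6 in Fed, 5.24 in Ern1-LKO replicate 2 and 5.68 in WT replicate 2, so the groups overlapped.

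Circadian clock genes were nearest to 7 members (0.138%; 0.208% of all regions) and bZIP and stress factors outside the unfolded protein response to 15 (0.295%; 0.273%), 9 of these near Myc. In the Pvt1 lncRNA 47.7 kb from Myc, chr15:62037777-62038356 had a fold of 14.1 in Fasted replicate 1, 11.6 and 11.5 in Fed, 9.66 in Ern1-LKO replicate 2 and 12.7 in WT replicate 2. Among clock genes, the member near Hlf, chr11:90417820-90418397, had 4.02 in Fasted replicate 1, 2.74 and 7.26 in Fed, 6.98 in Ern1-LKO replicate 2 and 8.90 in WT replicate 2.

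Developmental regulators were nearest to 109 members (2.14%; 0.978% of all regions), over 36 of 45 genes. The list was chosen for genes with long gene-free flanks, so its share follows in part from the rule. Pax2 had 9 members, Sox9 8, Sox2 and Tshz2 7 each and Zeb2 6. The leading Pax2 member, chr19:44683987-44684555, had a fold of 15.4 and 7.46 in Fasted, 9.66 and 9.36 in Fed, 15.4 in Ern1-LKO replicate 2 and 9.93 in WT replicate 2. A Zeb2 member 947 kb from the gene, chr2:46063840-46064196, had 9.997 and 11.8 in Fasted, 6.21 and 15.3 in Fed, 7.02 in Ern1-LKO replicate 2 and 7.40 in WT replicate 2. In both the Fasted and Fed values overlapped.

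Markers of non-parenchymal and other cells were nearest to 18 members (0.354%; 0.163% of all regions), 8 of which lay near Sox9, a cholangiocyte marker that is also in the developmental list. Apart from Sox9 the list held 10 members, near Cdh5, Epcam, Ptprc, Clec4f, Col3a1, Ins2 and Kdr. The part of long gene-free flanks in the share of this list was not tested either. Of the 2 Epcam members the more widely called, chr17:87551000-87551389, had a fold of 19.4 and 11.8 in Fasted, 3.77 and 8.74 in Fed, 11.1 in Ern1-LKO replicate 2 and 6.37 in WT replicate 2. Near Sox9, chr11:112732454-112733329 had no peak in Fasted. Of the Fed and Ern1-LKO libraries only the first of each called it, with a fold of 7.73 and 9.44. Both WT libraries called it, with 23.3 and 4.87. This member was not typical of the 8 near Sox9, of which the Fasted libraries called 7 and 6 and the Fed libraries 4 and 7. Another of the 8, chr11:112674885-112675204, had a fold of 8.94 and 12.3 in Fasted and 4.83 and 5.28 in Fed. Fold in general was lower in the Fed lists, as given above. The Epcam member also ranked higher in Fasted by −log10 q within the lists, at percentiles 95.4 and 87.5, against 39.4 and 72.2 in Fed. This difference was not tested, and the number of members that separate Fasted from Fed in this way is not given here. The Epcam member is therefore not read as a response to feeding. The share of each cell type in these samples was not measured.

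The authors' lists called on pooled libraries, which the rule did not use but which hold the same reads, found most members in the Fasted and Fed pools. A pooled peak overlapped 84.6% of members in Fasted, 94.1% in Fed, 14.3% in Ern1-LKO and 6.96% in WT. Among gene-end regions these shares were 90.0%, 99.6%, 57.9% and 61.2%, and among intragenic regions 81.9%, 96.8%, 20.4% and 13.0%. Members were thus recovered in the Ern1-LKO and WT pools less often than either other class, whose lists held 14412 and 13823 peaks, against 41708 and 84461 in the Fasted and Fed pools.

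Where both replicates of a group called a member, their summits were close. The median distance was 19 bp in Fasted over 3026 members, 42 bp in Fed over 2346, 125.5 bp in Ern1-LKO over 12 and 42.5 bp in WT over 64. At gene-end regions it was 55, 68, 53 and 47 bp. Summits at members were the closer in 3 of 4 groups, and the mean log2 ratio of members to gene ends was -0.27 (exact two-sided sign-flip permutation test over 4 groups, p = 0.625, adjusted p = 0.933; the smallest p possible is about 0.13). The Ern1-LKO value, which went the other way, rests on 12 members. Both summits lie in 1 merged region, so its width limits their distance. Members were narrower than gene-end regions (median width 347 against 773 bp), so closer summits at members follow in part from width. The part of width was not tested.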

How the data were processed

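XBP-1 ChIP-seq was measured in 8 immunoprecipitated liver libraries, 2 in each of 4 groups, with 2 input libraries. Per the submitters' processing notes, reads were demultiplexed with bcl2fastq, checked with FastQC 0.11.3, aligned with Bowtie2 2.2.5 and called with MACS2 2.2.1. Per the file headers the caller was MACS 2.1.1.20160309, run on single-end tags of mm10 with at most 1 duplicate tag kept and a q-value limit of 0.05. The authors deposited 12 peak lists, 8 per library and 4 on pooled libraries. Each deposited list gives the pileup signal at the summit, a ratio called fold enrichment, set against local background, and −log10 of the p-value and of the q-value, as the authors' caller wrote them.

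Peaks were merged across libraries and placed against the 21631 protein-coding gene spans of the RefSeq table (GRCm38.p6) with Python 3.11.15, numpy 2.4.6, pandas 2.3.3 and scipy 1.17.1. Figures were drawn with matplotlib 3.10.9. Local background was worked out here as (pileup + 1) / fold − 1 and divided by the genome-wide expectation. Precision is limited by 2 libraries a group and by list lengths. Tests were exact permutation tests over libraries or groups, with Benjamini-Hochberg adjustment over 7 tests; the planned test of the number of members called per library is among the 7, but its p is not given because the rule used these calls. On simulated peaks, 300 of 300 planted intergenic regions were recovered, with 0 others. The planted peaks nearly coincided across libraries, so this checks only the merging and distance steps and says nothing of precision on the real lists.

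The members and the 9 gene lists (315 genes) were chosen with earlier results of these data known. Members named are those in 7 or 8 libraries, up to 5 called in both libraries of 1 group and neither of the other, by mean rank of −log10 q, the 5 farthest from a gene, those within 1 kb of a miRNA gene, up to 3 per gene list, and the largest clusters. Motifs were searched in RefSeq promoter windows; a search at summits was not run because no genome was used here. Alternatives covered stricter q, distance, overlap and library limits, all RefSeq genes, equal list lengths, a replicate block and leaving out each library. Leaving out members with a background at least 5 times the genome-wide level was chosen after seeing the data.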

Additional observations from a re-analysis of the deposited data

How the results depend on the processing

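Over all alternatives, 124 values kept their direction and side of the threshold (counts within 1.5 times), though some changed in size, 32 moved and 13 changed sign. With only peaks of −log10 q of 5 or more, 113 members had peaks in both Fasted libraries and none in Fed, 51 the opposite, the density ratio was 0.186, and the log2 fold ratio of members to intragenic regions was 0.037. At more than 50 kb from a gene, the Fed count was 69, the count in both WT libraries and none in Ern1-LKO was 8 and the density ratio 0.184. Avoiding every RefSeq gene left 2289 members, with counts of 26, 45 and 4 for Fasted, Fed and WT, a density ratio of 0.177 and an intragenic ratio of 0.078. With the 698 strongest peaks of each library, 23 members were left, the counts were 0 for Fasted, 3 for Fed, 2 for Ern1-LKO and 1 for WT, and the log2 ratio of members called per library was -0.22 for Fasted against Fed and 0.32 for Ern1-LKO against WT. A limit of 5 libraries left 1314 members. A 50% overlap between peaks turned the Ern1-LKO minus WT share of far peaks to 0.47 points. Without members of high local background the intragenic ratio was 0.025. Pooled peaks of −log10 q of 5 or more found 81.0% of members in Fasted, 89.2% in Fed, 12.2% in Ern1-LKO and 5.72% in WT.

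Leaving out each library in turn gave 3116 to 5081 members, 11 to 832 in both Fasted libraries but not Fed, 81 to 813 in both Fed but not Fasted, 0 to 1125 in both Ern1-LKO but not WT, and 14 to 751 in both WT but not Ern1-LKO. The log2 ratio of members called ran from -0.31 to 0.26 for Fasted against Fed and from -4.32 to 2.65 for Ern1-LKO against WT. The share of far peaks differed by 0.80 to 5.18 points for Fasted minus Fed and by -8.75 to 1.60 points for Ern1-LKO minus WT. The fold ratio ran from -0.22 to -0.068 against gene ends and from -0.024 to 0.021 against intragenic regions. The replicate numbers share only a number, since the labels name no shared animal or day. A replicate block changes only the p-value. The differences of 2.99 and -3.57 points and the log2 ratios of members called of 0.13 and -0.88 therefore stay the same by construction. The cause of the changes seen when libraries were left out was not tested. List lengths of 698 to 82975 peaks limit every count of calls, and no alternative recovers signal below the authors' threshold.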
